A study of Homo sapiens with 14 samples.

Results

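The regions described here are the stretches of genome that follow the 3' end of protein-coding genes and that no other annotated gene touches. A window was taken when its gene was listed as protein coding, when the mean of the deposited FPM(downstream) over the 6 libraries reached 0.2 fragments per 1000000 fragments of the library (FPM), and when no other row of any type or strand overlapped the 4000 bp after the 3' end of the gene. Of the 57820 rows of the table, 20345 were coding genes, 9976 of these had an isolated window at any level, and 544 passed the floor. The members were therefore chosen by their mean downstream level, read from the same counts that are described below, so the level of the windows is a property of the choice and not a finding. The 3 windows just above it were those of UBB, PARK7 and RAB39A, each at a mean of 0.20 FPM, and the 3 windows just under it were those of RRM2 at 0.1996 FPM and of FAM89A and KCNK5 at 0.199 FPM. Because 4 of the 6 libraries behind that mean came from treated cells, the floor also favoured windows that were higher with treatment: 381 of the 544 windows reached it in the untreated libraries alone.

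The libraries were made from HEK293T, a human embryonic kidney cell line that carries the SV40 large T antigen. Cells received PDP, a pyridostatin analog that binds and stabilizes G-quadruplexes, at 0, 4 or 8 µM, and 20 min later 500 µM 4-thiouridine (s4U) for 1 h, so the untreated cells were labeled as well. Poly(A) RNA was treated with acrylonitrile, which makes s4U read as C after reverse transcription, so that a fragment with a T-to-C mismatch marks RNA made during the pulse (AMUC-seq). Each dose had 2 libraries, and the labels do not say that these came from separate cultures. The comparison asks how much labeled RNA lay beyond the annotated 3' end of a gene, relative to the gene's total fragments, at each dose.

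The end of a messenger RNA is made by cutting the growing transcript. A poly(A) signal, most often AATAAA or ATTAAA, is bound by the cleavage and polyadenylation factor, the RNA is cut shortly after it, a poly(A) tail is added to the upstream part, and RNA polymerase II runs on for some distance before it leaves the template. RNA beyond the cut is normally short-lived, and when the signal is passed over, transcripts that extend into the flanking DNA can be seen and may end at a later signal. G-quadruplexes are structures of stacked guanine tetrads formed by runs of guanine in DNA or RNA, and they occur near the ends of many genes as well as at promoters.

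Depth differed by dose and could not be told apart from it. The libraries at 0 µM held 9770956 and 10564894 fragments, those at 4 µM 22191913 and 22326477, and those at 8 µM 22363992 and 18373693. The share of fragments in genes was 82.6 to 83.0% at 0 µM against 86.5 to 89.7% with PDP, and the labeled share of gene fragments was 17.2% in both untreated libraries against 12.5 to 13.8% with PDP. The 2 untreated libraries differed by little more than sampling noise, with a chi-square of 1.07 per gene over 10981 genes where 1 is sampling noise, against 3.10 and 4.16 for the pairs at 4 and 8 µM. The p-values therefore measure only the spread between these libraries, which may be technical, and the calls were also made with the untreated pair summed into 1 sample, an alternative chosen after the data were seen. HEK293T markers were present in all libraries, with a summed level of 929 to 933 FPM at 0 µM, 843 to 859 FPM at 4 µM and 833 to 852 FPM at 8 µM over the 5 genes measured, none of them at 0. The 10 measured markers of other cell types summed to 53.8 to 58.3, 55.7 to 58.5 and 52.8 to 54.6 FPM, with GFAP and COL1A1 at 1 FPM or more and 5 or 6 of them at 0 in each group. The part of these differences in the results was not tested. In bulk RNA, fewer cells that make a transcript and less of it per cell cannot be told apart.

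What the downstream column holds was checked on windows that were not isolated. In 32 windows that contained 1 whole neighbouring gene on the same strand within 2400 bp, the window count was a median of 1.06 times the labeled count of that neighbour and 0.259 times its total count. In 19 windows with such a neighbour on the opposite strand the median was 0.00526 times the neighbour's labeled count, and in 651 windows whose same-strand neighbour began beyond 2000 bp it was 0.00183. The column thus behaved as a count of labeled fragments on the strand of the gene within about 2000 bp of its end, although the study's methods give 4000 bp. The numerator of the ratio below is then labeled RNA and the denominator all RNA of the host gene, so both ratios, over total and over labeled fragments, are given. Downstream fragments were thus assigned on the strand of the gene, and identical sequences had been collapsed before counting. The upstream column differed in strand. In 49 upstream windows with 1 whole opposite-strand neighbour within 2400 bp, the median was 1.01 times the neighbour's labeled count. In 19 upstream windows with such a same-strand neighbour it was 0.0141 times. The upstream column thus behaved as labeled fragments on the strand opposite to the gene. Window coordinates given below span the 4000 bp of the rule, although the counts behaved as if from about the first 2000 bp.

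Sequences around the 3' end are shown for some of the members named below, among those in which such a stretch was found. The first set gives the last AATAAA, or else ATTAAA, in the last 50 bp of genes whose downstream ratio rose. The hexamer is in capitals (GRCh37, read 5' to 3' on the strand of the gene). It is a match of letters and not an annotated poly(A) signal. Labeled RNA was counted from the annotated end of the gene.
RPS19, chr19:42376965-42376994, plus strand: aaaaagaatcAATAAAaatgttaaaagcac
ATF4, chr22:39918662-39918691, plus strand: gttccAATAAAttattttgtagggaaagta
EEF1A1, chr6:74225473-74225502, minus strand: tcactacAATAAAtgaattttaagctttaa
CKB, chr14:103985998-103986027, minus strand: AATAAActagggttttggcctgcctgcgtc
YDJC, chr22:21982378-21982407, minus strand: atattAATAAAataacgtgtgtctttcaaa
BCOR, chrX:39909068-39909097, minus strand: gatttaaaaaatAATAAAaacttaagggca
MSX2, chr5:174157850-174157879, plus strand: ATTAAAttaagcatttgttttattgcagta
FOXC1, chr6:1614098-1614127, plus strand: gctgcaAATAAAtacactttaatttcagtc

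The second set gives the same stretch for genes whose ratio fell, with the same 2 hexamers. Only genes with such a hexamer could be shown in these sets. RPL13 and JUND, which rose, and WDR4, which fell, had neither in the last 50 bp. The hexamer of PPP1R8 began 29 bases before the annotated end, that of SIL1 26 bases and that of FHL3 19 bases. These lie within the range of 18 to 47 bases in the first set.
SIL1, chr5:138282409-138282438, minus strand: tgccATTAAAggagaaaaatcacgtagaaa
FHL3, chr1:38462442-38462471, minus strand: ccagattctgcAATAAAgcggtgtgaggaa
PPP1R8, chr1:28178158-28178187, plus strand: aAATAAAgatgccctaaatgagtgtggaaa
CCDC134, chr22:42222274-42222303, plus strand: AATAAAagccagcagaccctttggaccgac

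The third set gives the first G-quadruplex motif of at most 30 bases on the coding strand of the window, since PDP binds G-quadruplexes. It is given for 4 genes whose ratio rose and then 3 whose ratio fell, with each run of at least 3 G in capitals. Longer motifs were left out and may lie nearer the annotated end. These motifs began between 25 and 1729 bp after the annotated end, and both groups of genes hold them. Among the motifs printed, that of JUND lay nearest, at 25 bp, followed by FHL3 at 129 bp and FOXC1 at 212 bp. A newer annotation ends JUND 59 bp further on, so there the motif of JUND lies inside the gene.
JUND, chr19:18390516-18390538, minus strand: GGGGcctggcGGGctGGGcGGGG
FOXC1, chr6:1614339-1614360, plus strand: GGGGcGGGGGaaGGGGaGGGGG
CKB, chr14:103985315-103985342, minus strand: GGGaccctGGGcagaaGGGGGGttGGGG
RPL13, chr16:89631693-89631710, plus strand: GGGctGGGctGGGctGGG
FHL3, chr1:38462291-38462313, minus strand: GGGtGGGGtggaGGGGGGccGGG
WDR4, chr21:44261516-44261542, minus strand: GGGGGtaGGGGGccaggtGGGtgtGGG
SIL1, chr5:138280654-138280680, minus strand: GGGcacctGGGGGctgtaGGGaGGGGG

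Summed over the 544 windows, downstream fragments made up 0.308 and 0.300% of the host genes' total fragments at 0 µM, 0.346 and 0.332% at 4 µM, and 0.429 and 0.446% at 8 µM. The 3 groups did not overlap and stood in the order of dose, with means of 0.304 ± 0.00593, 0.339 ± 0.0105 and 0.438 ± 0.0121% (SD, n = 2). The pooled share was thus 1.11-fold higher at 4 µM and 1.44-fold higher at 8 µM. The 95% Wilson intervals, which cover counting error only, were 0.297 to 0.320 and 0.290 to 0.311% for the untreated libraries and 0.420 to 0.438 and 0.436 to 0.456% for those at 8 µM. With 2 libraries a group, an exact two-sided permutation test of 0 against 8 µM gave p = 0.333, the smallest it can give, and untreated against all treated libraries gave p = 0.133, where the smallest possible is 0.0667. Over the windows that reached the floor in the untreated libraries alone, the share was 1.27-fold higher at 8 µM and 1.03-fold higher at 4 µM. Over all 9976 isolated coding windows, with no floor, it was 0.123 and 0.121% at 0 µM, 0.137 and 0.133% at 4 µM and 0.179 and 0.181% at 8 µM, a 1.48-fold difference at 8 µM that does not depend on the floor.

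**Figure D1:**
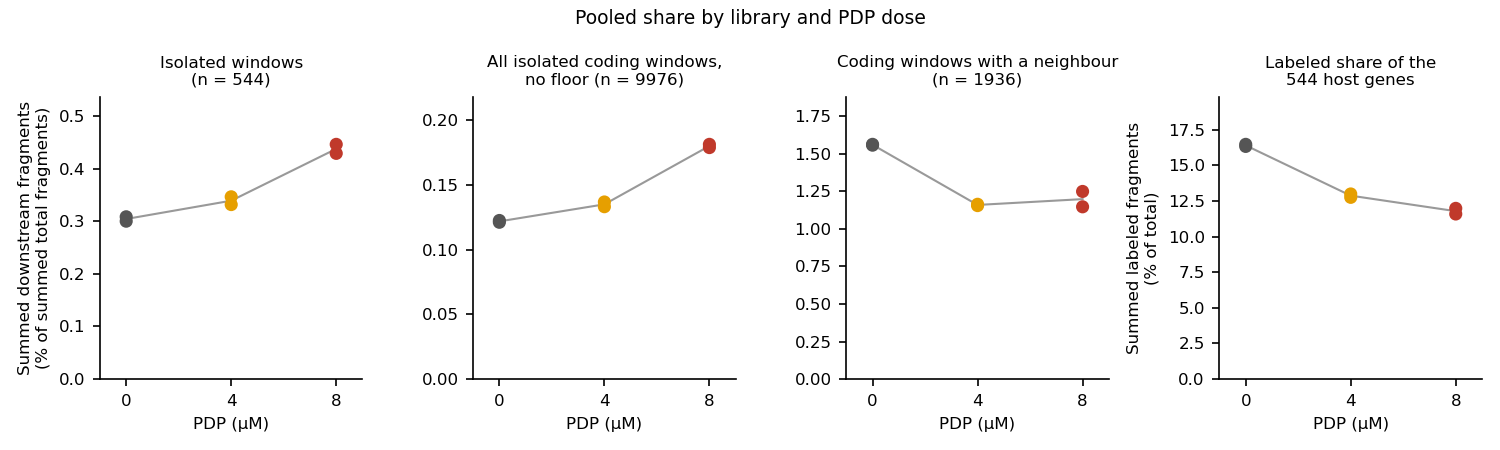
Each panel plots a pooled share in percent (vertical axis, from 0) against PDP dose in µM: downstream over total fragments for the 544 isolated windows, for all 9976 isolated coding windows and for the 1936 coding windows with a neighbour, and labeled over total fragments of the 544 host genes. Points are libraries and lines join group means; both kinds of isolated window are highest at 8 µM, whereas the windows with a neighbour and the labeled share are highest at 0 µM.

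The windows of coding genes that passed the floor but were not isolated went the other way. Their 1936 windows held 1.56% of total fragments in both untreated libraries, 1.16% in both at 4 µM, and 1.15 and 1.25% at 8 µM. Where the neighbouring gene lies on the same strand, its labeled fragments are counted too. The same 544 isolated windows set against the labeled fragments of their host genes, in place of total fragments, gave 1.89 and 1.82% at 0 µM, 2.67 and 2.60% at 4 µM and 3.70 and 3.72% at 8 µM. This ratio was 1.42-fold higher at 4 µM and 2.0-fold higher at 8 µM. The labeled share of the same host genes moved in the opposite direction, from 16.3 and 16.5% at 0 µM to 13.0 and 12.8% at 4 µM and 11.6 and 12% at 8 µM. For comparison, 563 isolated windows upstream of coding genes held 0.497 and 0.473% at 0 µM and 0.536 and 0.551% at 4 µM. At 8 µM they held 0.632 and 0.663%, which was 1.34-fold higher than at 0 µM. Upstream counts behaved as fragments of the opposite strand. Their ratio thus sets labeled RNA of that strand over the gene's total, and is not the same measure as the downstream ratio.

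Single windows were tested with edgeR's quasi-likelihood test on downstream counts with the host gene's total count as offset. Of the 544 windows, 540 were tested, since 4 host genes had a mean total under 0.2 FPM. At 8 µM against 0 µM the ratio rose in 39 windows and fell in 7, which is 7.22 and 1.30% of those tested, at a Benjamini-Hochberg adjusted p under 0.05. Over all 3132 rows tested, 4.47% rose and 9.26% fell. The median log2 change was 0.30 in the isolated windows against -0.11 over all rows. It was -0.14 in the 1868 coding windows that were not isolated, of which 84 rose and 206 fell. When isolation was asked on the same strand only, 1236 windows were tested, the 540 among them. Of these 1236, 95 rose and 18 fell, with a median of 0.27. The direction was thus not particular to windows without any neighbour. Among the 378 tested windows that reached the floor in the untreated libraries alone, 19 rose and 7 fell, and the median was -0.07, near that over all rows. That floor in turn favours windows that were high without PDP. The other 20 rises, those of RPL11, RPS16, RPS19, RPSA, U2AF1, HNRNPDL, POLR3E, JUND, MSX2, NKX2-5, EN2, BCOR, DIDO1, TFDP1, DNAJB6, YDJC, FAM120A, CYHR1, SURF6 and CBX6, lay under 0.2 FPM without PDP and reached the floor only through the treated libraries. Their higher value with PDP is in part fixed by the choice of members, so their folds and calls are given as a description. All 39 rises and all 7 falls separated both libraries at 8 µM from both at 0 µM. In 37 of the 39 the means followed the order of the 3 doses. Both counts follow in large part from the call, which was made on the same libraries. They are given as a description and not as further evidence.

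The counts behind a single window were small. Mean downstream levels ran from 0.20 to 12.7 FPM with a median of 0.368 FPM, and a window held 18 to 1396 fragments over the 6 libraries, with a median of 40. Simulated counts with the same depth gave calls for 50% of 4-fold rises, 8% of 2-fold rises, 28% of 4-fold falls and 6% of 2-fold falls in this comparison, so smaller changes in single windows were mostly not detectable. Of the 39 rises, 33 had fragments in every group and 6 had none at 0 µM. DESeq2 called 12 of the 39 and 2 of the 7, limma called 28 and 5, and with the untreated pair summed 34 and 7 kept their call. Without replicate 1 at 8 µM, 12 of the 39 rises and 3 of the 7 falls kept their call. Without replicate 2 at 8 µM it was 20 and 2, and without replicate 1 or 2 at 0 µM it was 18 rises each time, with 5 and 6 falls. Without either library at 4 µM, which enters the shared estimate of the spread, 25 rises and 4 falls kept their call.

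**Figure D2:**
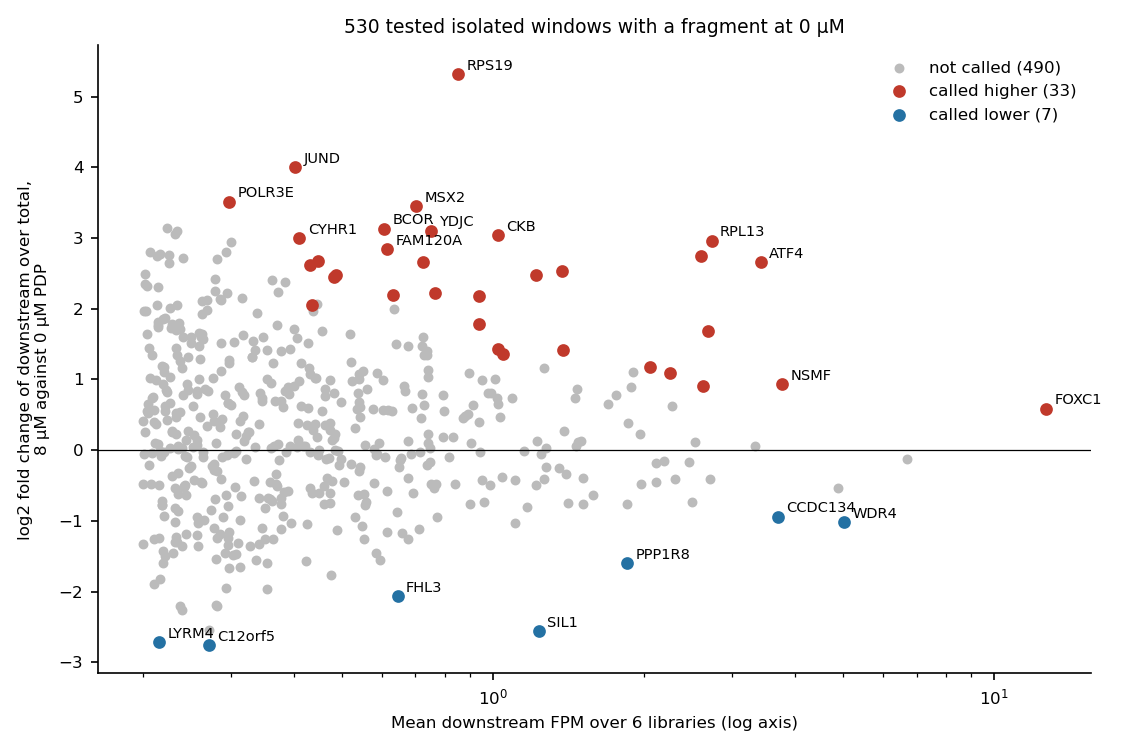
Log2 change of downstream over total fragments at 8 µM against 0 µM PDP (vertical axis) against mean downstream FPM over the 6 libraries (horizontal log axis) for the 530 tested windows with at least 1 fragment at 0 µM. Each point is 1 window, red for the 33 called higher, blue for the 7 called lower and grey for the 490 not called; the changes spread most widely at low levels, and FOXC1 stands alone at the right end at 12.7 FPM.

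Ribosomal protein genes, whose products build the 2 ribosomal subunits, were the list with the most windows. Of the 80 genes in the list, 17 had an isolated window above the floor, but only 7 of these reached it in the untreated libraries. Among the 7 the ratio rose at 8 µM in RPL13 and RPS14 and fell in none, the fitted log2 change was above 0 in 6, and the median was 1.03. The windows of RPS19, RPL11, RPS16 and RPSA were called higher as well, and all 4 were in the set only through the treated libraries. Over the 17 the median was 1.72, or 1.44 when windows with no untreated fragments were set at their bound, which describes windows in part chosen for high treated values. At 4 µM, 3 of the 17 were called higher, RPL13, RPS19 and RPSA. The study drew its themes of ribosome biogenesis, translation and splicing from these same libraries, so the counts for those lists are not independent evidence of a direction. Ribosomal protein genes have many processed pseudogenes, and how the authors' counting split reads between such copies is uncertain.

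RPL13, a protein of the large subunit, had the smallest adjusted p of all members. Its window, chr16:89630951-89634950, held 9 and 7 fragments at 0 µM, 54 and 54 at 4 µM, and 91 and 108 at 8 µM. Per 1000 total fragments of the gene this was 0.599 and 0.435, 1.97 and 1.83, and 3.32 and 4.82. The groups did not overlap, and the log2 change was 1.87 ± 0.36 (SE) at 4 µM and 2.96 ± 0.34 at 8 µM, with edgeR adjusted p of 0.0043 and 4.4e-05. On the FPM scale, where the median of all genes had a log2 change of 0.33, the total count of RPL13 had one of -0.32. Its labeled share had one of -0.38, where the median over all genes tested was -0.46. The window thus moved against both measures of its gene, although the fall in labeled share was no larger than that median.

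RPS19 codes for a small-subunit protein needed for the maturation of the subunit. Its window, chr19:42376995-42380994, held 1 and 0 fragments at 0 µM, 9 and 15 at 4 µM, and 43 and 37 at 8 µM. Only 1 fragment stood for both untreated libraries together. The ratio of downstream over total at 8 µM against 0 µM was 46.1, with a 95% counting interval of 8.04 to 1843, and edgeR gave an adjusted p of 0.00016 at 8 µM and 0.026 at 4 µM. RPS14, another small-subunit protein, had 6 and 0, 10 and 14, and 26 and 32 fragments, so its untreated libraries disagreed and the 4 µM group overlapped them when taken per total fragment. Its log2 change at 8 µM was 2.23 ± 0.68 with an edgeR adjusted p of 0.039.

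RPL11, RPS16 and RPSA were picked out after their values were seen. The window of RPL11, a large-subunit protein that also binds MDM2, held 1 and 1, 15 and 15, and 16 and 12 fragments. The counts at 4 and 8 µM were alike, and the ratio was 5.82-fold higher at 8 µM with a counting interval of 1.47 to 50.4 and an edgeR adjusted p of 0.036, against 0.062 at 4 µM. RPS16 had no fragment at 0 µM, 9 and 2 at 4 µM and 19 and 16 at 8 µM, which was at least 6.53-fold higher at 8 µM against a floor of 3 fragments over the untreated group, in a window that only the treated libraries brought into the set. RPSA, the laminin receptor and a small-subunit component, had none at 0 µM, 13 and 9 at 4 µM and 11 and 4 at 8 µM, at least 2.72-fold higher at 8 µM, and the same holds for it. Unlike RPS16, RPSA had more fragments at 4 µM than at 8 µM, and a newer annotation ends the gene 13713 bp further on. RPL3, a further large-subunit protein, did not pass, with 1.30 and 1.39 per 1000 at 0 µM, 1.56 and 1.05 at 4 µM, and 2.08 and 2.96 at 8 µM (log2 change 0.89 ± 0.34, edgeR adjusted p = 0.091).

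**Figure D3:**
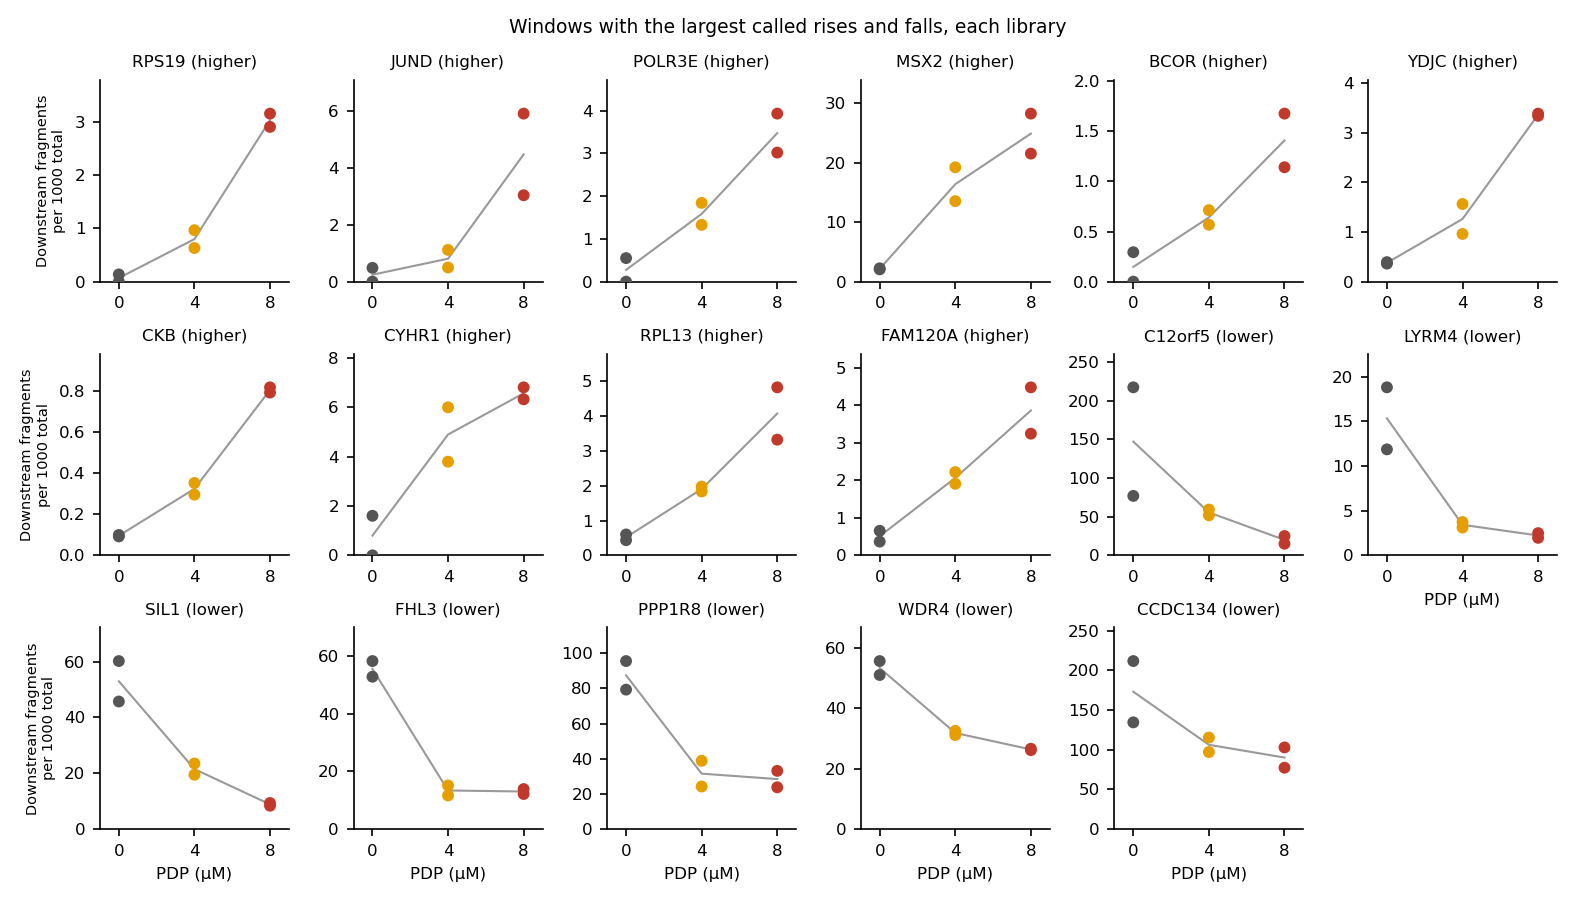
Downstream fragments per 1000 total fragments of the host gene (vertical axes, from 0) against PDP dose in µM for the 10 largest called rises with fragments in every group and the 7 called falls. Points are libraries and lines join group means; RPL13 and CKB step up with each dose, whereas FHL3 and PPP1R8 are already low at 4 µM.

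EEF1A1, the elongation factor that brings aminoacyl-tRNA to the ribosome, was the 1 of 7 translation factors with a called window. It held 2 and 6 fragments at 0 µM, 26 and 18 at 4 µM and 69 and 44 at 8 µM, or 0.308 and 0.837, 1.38 and 1.01, and 3.84 and 2.96 per 1000 total fragments. The log2 change at 8 µM was 2.53 ± 0.46 with an edgeR adjusted p of 0.002, whereas 1.02 ± 0.52 at 4 µM did not pass (adjusted p = 0.27). EEF1A1 also has many pseudogene copies, and a newer annotation carries a transcript of the gene 26442 bp further, over the window. EIF3F, a subunit of the initiation factor eIF3, had 0 and 2, 6 and 9, and 12 and 9 fragments and did not pass (edgeR adjusted p = 0.12).

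Other genes of RNA and ribosome production gave single calls. MRTO4, an assembly factor of the large subunit, was the 1 of 9 ribosome biogenesis genes that rose, with 10 and 16, 50 and 38, and 70 and 50 fragments. Its per-1000 values at 8 µM, 24.6 and 23.1, lay above the untreated 8.58 and 12.3, for a log2 change of 1.18 ± 0.32 (edgeR adjusted p = 0.023). Of 11 splicing factors, U2AF1, which reads the 3' splice site, and HNRNPDL, an RNA-binding protein, were called higher, both named after their values were seen. Neither had a fragment at 0 µM, and at 8 µM they were at least 2.53-fold and 2.36-fold higher, on 8 and 8 and on 8 and 12 fragments. Of the 11 windows, 7 reached the floor in the untreated libraries, and these did not include U2AF1 and HNRNPDL, so no change of the list is read from them. POLR3E, a subunit of RNA polymerase III, had 1 and 0, 7 and 5, and 11 and 12 fragments. Its ratio was 13.0-fold higher at 8 µM, with a counting interval of 2.12 to 537 (edgeR adjusted p = 0.021).

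The window of ATF4, the transcription factor of the integrated stress response, changed at both doses. It lies at chr22:39918692-39922691 and held 4 and 11 fragments at 0 µM, 85 and 90 at 4 µM and 123 and 105 at 8 µM. Per 1000 total fragments of ATF4 these were 1.56 and 4.00, 11.8 and 12.4, and 16.6 and 19.2. All treated libraries lay far above both untreated ones, and those at 4 µM were already close to those at 8 µM. The log2 change was 2.09 ± 0.35 at 4 µM and 2.66 ± 0.34 at 8 µM, with edgeR adjusted p of 0.002 and 0.00013. ATF4 begins 1562 bp after the end of MIEF1 on the same strand, and RNA that starts in MIEF1 and RNA that starts in ATF4 cannot be told apart in this window.

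Early response genes had few isolated windows. JUND, an AP-1 transcription factor, was the 1 of 3 that passed: 0 and 1 fragments at 0 µM, 2 and 5 at 4 µM, and 29 and 13 at 8 µM. Nearly all of its fragments came from the 8 µM libraries, and its ratio there was 18.2-fold higher, with a counting interval of 3.09 to 735 (edgeR adjusted p = 0.01). JUND was also 1 of the 4 host genes whose labeled share rose, by 0.24 on the log2 scale. HES1, a repressor downstream of Notch, had no untreated fragment and 17 and 9 at 8 µM, at least 1.67-fold higher, with an edgeR adjusted p of 0.067. ID2, an inhibitor of basic helix-loop-helix factors, had 44 and 39.1 per 1000 at 0 µM, 18.8 and 26.8 at 4 µM, and 52.9 and 56.5 at 8 µM, and did not pass (edgeR adjusted p = 0.57).

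Developmental transcription factors included the window with the highest level of all. FOXC1, a forkhead factor of mesoderm and eye development, had 10.2 and 8.99 FPM at 0 µM, 12.1 and 11.9 at 4 µM, and 15.4 and 17.6 at 8 µM after its 3' end, at chr6:1614128-1618127. Set against the gene's total fragments, 19.9 and 17.7 per 1000 became 22.4 and 22.6 at 4 µM and 28 and 28.6 at 8 µM. The groups stood apart in the order of dose, yet the change was modest at 0.59 ± 0.17 on the log2 scale (edgeR adjusted p = 0.034). Over the labeled count of FOXC1 the log2 change was 1.24 (edgeR adjusted p = 0.0047), since the labeled share of the gene itself was 46.6% at 0 µM and 29.7% at 8 µM.

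MSX2, a homeobox repressor of limb and skull development, held 1 and 1, 15 and 20, and 29 and 21 fragments. It was 11.6-fold higher at 8 µM with a counting interval of 3.05 to 98.5, and edgeR gave adjusted p of 0.0034 at 8 µM and 0.023 at 4 µM. FOXC1 and MSX2 were the 2 of 7 members of that list that were called higher, and of the 4 that reached the floor in the untreated libraries only FOXC1 was. The other 5 did not pass: ZIC2 and IRX3 had log2 changes of 2.40 ± 0.87 and 2.13 ± 0.80 (edgeR adjusted p of 0.08 and 0.091), and SIX2, DLX2 and FOXO3 lay at 0.90, 0.10 and 0.13. Over the labeled count 4 of the 7 rose, ZIC2 and IRX3 among them. Of the 4 that reached the floor in the untreated libraries, 1 rose on that scale. ZIC2, IRX3 and MSX2 were in the set only through the treated libraries, so their higher values are in part fixed by the choice of members. Some rises outside the list, named after their values were seen, were also in homeobox and zinc-finger genes. NKX2-5, a cardiac homeobox factor, had 2 and 2, 17 and 14, and 28 and 24 fragments (log2 change 2.66 ± 0.55, edgeR adjusted p = 0.0047), and ZNF703, a zinc-finger corepressor, had 4 and 9, 41 and 50, and 136 and 77 (2.75 ± 0.37, 0.00018).

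BCOR, a corepressor that belongs to a Polycomb complex, had 0 and 2 fragments at 0 µM, 11 and 13 at 4 µM and 31 and 18 at 8 µM. Its ratio at 8 µM was 9.28-fold higher, with a counting interval of 2.44 to 78.8 (edgeR adjusted p = 0.013). DIDO1 and TFDP1, the latter the partner of E2F factors, were likewise named after their values were seen. Both had no untreated fragments, and at 8 µM they held 21 and 16 and 17 and 7, at least 5.56-fold and 3.37-fold higher, which follows in part from the floor that brought them into the set.

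Metabolic genes were represented by CKB, the brain-type creatine kinase, and FASN, the fatty acid synthase. CKB is an abundant transcript here, so its window held few fragments per total: 0.0993 and 0.0923 per 1000 at 0 µM, 0.353 and 0.296 at 4 µM, and 0.793 and 0.819 at 8 µM. These 3 pairs did not overlap, and the log2 change was 1.73 ± 0.51 at 4 µM and 3.04 ± 0.45 at 8 µM (edgeR adjusted p of 0.046 and 0.00041). FASN, named after its values were seen, had 22 and 11, 46 and 40, and 91 and 90 fragments. Its 4 µM values of 0.543 and 0.459 per 1000 overlapped the untreated 0.499 and 0.229, and only 8 µM stood apart, at 1.05 and 1.28 (log2 change 1.69 ± 0.33, edgeR adjusted p = 0.0033).

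NDUFS6, a subunit of respiratory complex I, was the 1 of 6 genes of oxidative phosphorylation and glycolysis that rose, with 3.71 and 10.4 per 1000 at 0 µM, 9.40 and 9.12 at 4 µM, and 19.5 and 19.2 at 8 µM (log2 change 1.42 ± 0.44, edgeR adjusted p = 0.045). ENO1, the glycolytic enolase of the same list, did not pass at 1.47 ± 0.55 (edgeR adjusted p = 0.087). DNAJB6, a heat shock co-chaperone, had 1 and 1, 11 and 6, and 13 and 21 fragments and was 6.63-fold higher at 8 µM with a counting interval of 1.70 to 57.0 (edgeR adjusted p = 0.04). None of the 4 proteasome and ubiquitin genes or of the 5 cell cycle genes passed, with median log2 changes of 0.86 and -0.59. By contrast ACTB, the cytoskeletal actin and 1 of the most abundant transcripts, had 3 and 3, 1 and 1, and 7 and 7 fragments, with a log2 change of 0.25 ± 0.67. RBBP6, the only gene of 3' end processing with an isolated window above the floor, did not pass either, at 1.03 ± 0.91.

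**Figure D4:**
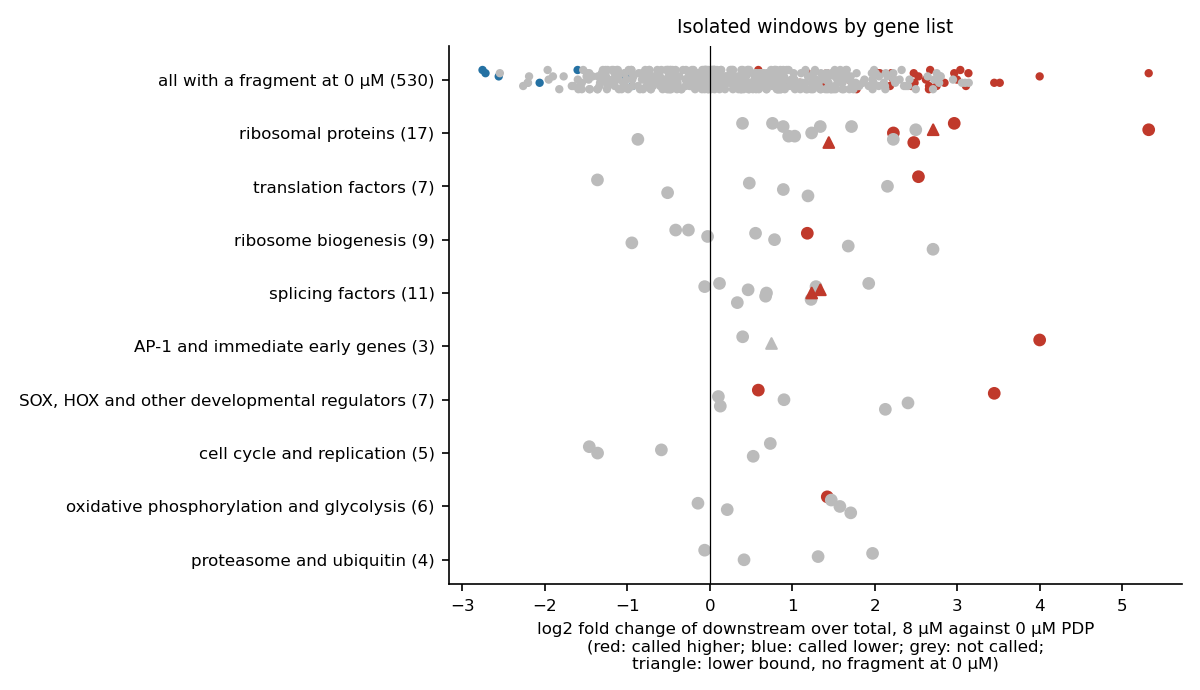
Log2 change of downstream over total fragments at 8 µM against 0 µM PDP (horizontal axis) for the lists with at least 3 tested windows (rows, number in brackets) below all windows with a fragment at 0 µM. Circles are windows, triangles are lower bounds for windows with no fragment at 0 µM, and red and blue mark called rises and falls; 16 of the 17 ribosomal protein windows lie above 0, 10 of the 17 having reached the floor only through treated libraries, and no list row holds a called fall.

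A further 4 windows belonged to genes of less studied function. YDJC had 0.393 and 0.363 per 1000 at 0 µM, 1.57 and 0.962 at 4 µM and 3.39 and 3.34 at 8 µM, for a log2 change of 3.11 ± 0.54 (edgeR adjusted p = 0.0015). FAM120A had 1 and 2, 14 and 12, and 28 and 18 fragments, 7.51-fold higher at 8 µM with a counting interval of 2.41 to 37.7. CYHR1 had 2 and 0, 13 and 9, and 15 and 11, 8.62-fold higher with an interval of 2.16 to 75.0. NSMF was among the highest windows and changed less, from 2.46 and 2.26 per 1000 to 3.38 and 4.27 and to 5.17 and 3.83. Its treated groups overlapped each other, and its log2 change at 8 µM was 0.94 ± 0.26 (edgeR adjusted p = 0.025). The remaining rises, in ANAPC7, EN2, PITX1, NR2F2, TP53RK, CBX6, CCDC124, PTMA, MRPL36, SURF6 and WDR18, had fitted log2 changes between 0.91 for WDR18 and 2.62 for EN2.

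The ratio fell in 7 windows, and SIL1, a nucleotide exchange factor of the endoplasmic reticulum chaperone BiP, changed with the smallest adjusted p. It had 45.7 and 60.2 downstream fragments per 1000 total at 0 µM, 19.5 and 23.5 at 4 µM, and 9.35 and 8.37 at 8 µM. The 3 groups stood apart in falling order of dose, with a log2 change of -1.30 ± 0.34 at 4 µM and -2.56 ± 0.39 at 8 µM (edgeR adjusted p of 0.025 and 0.00056). The level in the window fell as well, from 1.74 and 2.46 FPM to 0.492 and 0.381 FPM at 8 µM, while the total count of the gene had a log2 change of 0.32. Among the 7 falls, SIL1 was the only one also called over the labeled count (log2 change -2.33, edgeR adjusted p = 0.0052).

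FHL3, a LIM-domain protein of muscle, had 58.3 and 52.9 per 1000 at 0 µM, 11.7 and 15.1 at 4 µM, and 13.9 and 12.2 at 8 µM. Both doses lay far below the untreated libraries and overlapped each other, with log2 changes of -2.03 ± 0.45 and -2.06 ± 0.47 (edgeR adjusted p of 0.012 and 0.0078). PPP1R8, a nuclear inhibitor of protein phosphatase 1, showed the same shape, with 95.6 and 79.3, 38.8 and 24.2, and 33.1 and 23.8 (log2 change at 8 µM -1.60 ± 0.34, edgeR adjusted p = 0.0054). WDR4, part of the tRNA methyltransferase that makes 7-methylguanosine, was the fall with the most fragments, 66 and 65, 111 and 105, and 86 and 66. In relation to total fragments it went from 55.6 and 50.9 to 32.5 and 31.1 and to 26.1 and 26.6 per 1000, a log2 change of -1.01 ± 0.21 (edgeR adjusted p = 0.0051).

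CCDC134, a secreted and nuclear protein, had 212 and 134 per 1000 at 0 µM, 115 and 97.1 at 4 µM, and 77.3 and 103 at 8 µM (log2 change -0.94 ± 0.28, edgeR adjusted p = 0.033). Here the untreated libraries differed widely, a newer annotation ends the gene 5865 bp further on, and the gene begins 1222 bp after MEI1. LYRM4, an assembly factor of iron-sulfur clusters, held 3 and 5, 4 and 3, and 2 and 2 fragments, and C12orf5, the regulator of glycolysis known as TIGAR, held 5 and 2, 7 and 8, and 2 and 3. For both, the level in the window did not pass (edgeR adjusted p of 0.11 and 0.25), while the total counts of the genes were higher, with log2 changes of 0.81 and 1.37. All 7 genes with a fall had a called rise in total count at 8 µM on the FPM scale, compared with 14 of the 39 with a rise, of which 15 had a called fall in total count. With TMM scaling these were 3 of the 7 with none lower, and 1 of the 39 with 25 lower. Over all genes tested, 51.8% rose and 8.71% fell on the FPM scale. With TMM, 4143 rose and 4176 fell of 15473. The total count is the denominator of the ratio, so a higher total lowers the ratio by construction. This contrast between falls and rises is therefore no separate finding.

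Taken as a level in FPM rather than as a ratio, 81 of the 540 windows rose at 8 µM and 15 fell, where over all rows 10.1% rose and 11.3% fell. The level is the value by which the windows were chosen, and among the 378 that reached the floor in the untreated libraries 32 rose and 15 fell, with a median log2 change of 0.08 against 0.57 over the 540 and 0.12 over all rows. Without replicate 1 or 2 at 0 µM these were 36 and 33 higher and 3 and 9 lower, and without replicate 1 or 2 at 8 µM 39 and 50 higher and 7 and 10 lower. In 38 of the 39 windows with a higher ratio the level rose as well, and in 5 of the 7 with a lower ratio it fell. Counted over labeled in place of total fragments, 58 windows rose and 1 fell, against 6.93 and 2.08% of all rows, with a median log2 change of 0.84. Among the 378 windows 29 rose and 1 fell on that scale, and the median was 0.43, near the 0.42 over all rows. Of the 39 rises, 36 were also called on that scale. The median log2 change of total count was 0.14 over 535 host genes, of which 244 rose and 109 fell, against 51.8 and 8.71% of all genes tested and a median of 0.33 over all genes. This direction depended on the scaling: with TMM normalization the median over all genes was 0.02, and 105 host genes rose and 257 fell. The labeled share of the host gene fell in 401 of 532 and rose in 4, against 49.8 and 0.432% of all genes tested, with medians of -0.51 and -0.46. It fell in 35 of the 39 genes whose window ratio rose.

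At 4 µM against 0 µM, 12 windows had a higher ratio and 8 a lower one, against 1.15 and 7.22% of all rows. The median log2 change was 0.05 in the isolated windows and -0.23 over all rows. Among the 378 windows that reached the floor in the untreated libraries, 8 were higher and 8 lower, with a median of -0.30. Of the 12, 10 were among the 39 at 8 µM (RPL13, RPS19, RPSA, ATF4, CKB, MSX2, ZNF703, ANAPC7, TP53RK and CCDC124) and of the 8, 4 were among the 7 (SIL1, FHL3, PPP1R8 and WDR4). Both comparisons share the untreated libraries, so this overlap is not independent. Without either library at 4 µM edgeR called 0 windows in either direction, and without replicate 1 or 2 at 0 µM it called 3 and 2 higher and 7 and 4 lower. At an unadjusted p under 0.05 the full set gave 38 higher and 38 lower. As a level, 20 windows rose and 9 fell at 4 µM, where 3.29 and 8.56% of all rows did, and among the 378 windows 11 rose and 9 fell. Over labeled fragments 7 rose and 0 fell, against 0.958 and 0.926%, with 68 higher and 14 lower at an unadjusted p under 0.05, or 37 and 14 among the 378 windows. The doses themselves were not told apart in single windows: between 8 and 4 µM edgeR called 0 windows, or 0% of all rows, at an adjusted p under 0.05. At an unadjusted p under 0.05, 71 isolated windows were higher and 6 lower at 8 µM. DESeq2 and limma also called none, and a fit of both counts together called 18 higher. Over labeled fragments edgeR called 0 isolated windows in either direction between these doses, against 0.0319% of all rows higher and 0.0319% lower, and 76 were higher and 3 lower at an unadjusted p under 0.05.

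The 544 windows shared some features that the rule did not use. In the last 50 bp of the gene AATAAA was found on the coding strand in 48.0% of them and ATTAAA alone in 16.9%, compared with 46.1 and 13.2% of the 1936 other coding windows above the floor. In the 4000 bp after the end AATAAA occurred in 73.9% against 63.1%, first at a median of 1616 bp and 1726 bp. A G-quadruplex motif, 4 runs of GGG or longer with 1 to 7 bases of any kind between them, was present on the coding strand in 47.4% of the windows against 65.1%, and on the opposite strand in 43.0% against 61.9%. The median GC content was 51.4 and 55.7%, and isolated windows thus held fewer such motifs and less GC than those beside other genes. In the last 200 bp of the gene the motif was rare, at 1.47% on the coding strand against 4.86%.

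Within the first 2000 bp, 36.6% of isolated windows held the motif on the coding strand and 27.0% on the opposite strand. On either strand it was held by 269 of the 544. Of the 39 windows whose ratio rose, 15 held it on the coding strand and 21 on either strand, and of the 7 that fell, 5 held it on the coding strand. AATAAA stood in the last 50 bp of 21 of the 39 and of 5 of the 7. These are matches of letters and not observed structures, and whether a motif went with a change was not tested.

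Annotation and neighbours limit what counts as downstream. In a newer annotation (GENCODE 44 lifted to GRCh37) 123 of the 544 genes end over 100 bp further on, including 6 of the 39 rises and 2 of the 7 falls. In that annotation 217 windows overlap a same-strand exon in their first 2000 bp, 14 and 2 of them among the rises and falls. Without these 217 windows the pooled share was 1.61-fold higher at 8 µM and 1.19-fold higher at 4 µM. Of the 544 genes, 95 begin within 4000 bp after another gene on their strand, as RPL13 does after SPG7, and 35 of these are also among the 217. Without the 95 the pooled share was 1.34-fold and 1.05-fold higher. Windows of ZNF670 and ZNF695, and of the rows C15orf37 and C15ORF37, overlap on 1 strand and share fragments, as 2 of 4 overlapping pairs.

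In 42 cases the other end of the same gene was measured too, as the window upstream of the start was isolated and above 0.2 FPM. The upstream counts behaved as labeled fragments of the strand opposite to the gene. They are therefore not RNA of the gene's own strand, unlike the downstream counts. Of the 563 isolated upstream windows, 544 were tested, and 48 rose and 16 fell over total fragments at 8 µM, against 2.86 and 19.2% of all rows. Without replicate 1 or 2 at 8 µM these were 20 and 19 higher and 2 and 3 lower, and without replicate 1 or 2 at 0 µM 31 and 29 higher and 11 and 7 lower. DESeq2 called 7 higher and 2 lower. Among the 363 upstream windows that reached 0.2 FPM in the untreated libraries, 20 were higher and 16 lower. Of the 42 genes, FOXC1, ZNF703 and TFDP1 were called higher downstream, where 4.47% of all rows were. Upstream, HES1, SKI, CYP20A1, FOXO3, NAP1L4, UCP2, PTGES3 and ARHGDIA were called higher, all chosen after their values were seen. With 3 and 8 calls among 42 genes, nothing can be read from the lack of a shared one. Whether the change at the end differed from that at the start of the same gene was not tested.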

How the data were processed

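AMUC-seq libraries of HEK293T cells were analysed at 3 PDP doses, with 2 libraries per dose, grouped by the sample labels. Per the labels and the study's methods, the authors trimmed reads with cutadapt 1.18, removed ribosomal reads and identical duplicates, aligned to hg19 (GRCh37) with HISAT2 2.1.0, and counted fragments per gene by strand. The deposited tables give, for 57820 gene rows, whole-number counts of total, labeled, upstream and downstream fragments, and the same as FPM, an RPM value of fragments per 1000000 fragments of the library. The libraries held 9770956 to 22363992 fragments. Authors' tables of the conversion and half-life experiments were not used here.

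The members and gene lists were chosen with earlier results of these data known. Rows with mean downstream and mean total FPM of at least 0.2 (3132 rows) were fitted with edgeR 4.0.16 (R 4.3.3, quasi-likelihood test, 3 dose groups in 1 fit), with log(total count + 0.5) as offset for the ratio, or the authors' library sizes for levels. Host totals were tested from 1 FPM, and labeled shares from 1 FPM total and 0.5 FPM labeled. P-values were adjusted by Benjamini-Hochberg over all rows tested, with calls under 0.05. A count of 0 was bounded by 3 fragments over the group, and groups with 1 to 3 fragments were given an exact 95% counting interval of the ratio; intervals and floors cover counting error only. Alternatives used DESeq2 1.42.0, limma 3.58.1 (log2 of FPM + 0.1), TMM, other floors and isolation lengths, a replicate block and leaving out each library. The fits were tested on simulated counts. The genes named were the 10 largest called rises and all called falls with separate libraries and fragments in every group, the 10 highest windows, the 5 with the highest ratio at 0 µM, the 3 nearest the floor on each side, and up to 4 members per list; others are said to be chosen after their values were seen. Sequences came from GRCh37 by the coordinates of the table. Of the gene IDs, 55538 were in the annotation used, GENCODE 44 lifted to GRCh37, and 84.8% of these had their start or end at the same base; no row ended past its chromosome.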

Additional observations from a re-analysis of the deposited data

How the results depend on the processing

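The ratio at 8 µM kept its direction in all 46 called windows under each alternative fit. With a floor of 1 FPM only 19 of them were fitted. The 46 were called on these same libraries, and all of them separated both libraries at 8 µM from both at 0 µM. The kept direction therefore follows in large part from the call and is given as a description only. The number of called windows moved with the test and the floor, and the cause was not tested. For the ratio at 8 µM against 0 µM (39 higher and 7 lower of 540), higher calls were 17 of 68 with a floor of 1 FPM, 24 of 543 with none, 12 of 540 by DESeq2, 95 of 1236 with isolation on the same strand only, 24 of 365 with isolation over 8000 bp and 19 of 378 with the floor at 0 µM, and lower calls were 3 with no floor, 2 by DESeq2, 12 by limma, 13 with both counts in 1 fit, 18 on the same strand, 4 over 8000 bp and 1 over labeled counts, with either floor. At 4 µM (12 and 8), higher calls were 5, 5, 2, 0, 21, 7 and 7 with a floor of 1 FPM, no floor, DESeq2, limma, same strand, 8000 bp and labeled counts, and 6 with labeled counts and the floor at 0 µM together, and lower calls were 5, 5, 1, 0, 15 and 0 without the 8000 bp setting. Between 8 and 4 µM (0 and 0), 3 were higher with no floor, 3 with the untreated pair as 1 sample and 18 with both counts in 1 fit.

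For the level at 8 µM (81 and 15), a floor of 1 FPM, no floor, DESeq2 and the floor at 0 µM gave 21, 40, 22 and 32 higher, and the first 3 gave 9, 7 and 4 lower. At 4 µM (20 and 9) they gave 8, 11, 5 and 11 higher, and no floor, DESeq2 and the summed untreated pair gave 5, 2 and 5 lower. TMM turned host totals from 244 higher and 109 lower to 105 and 257. Labeled shares called higher (4) were 2 with no floor and 2 by DESeq2. Upstream windows (48 and 16) had 12 higher with a floor of 1 FPM, 20 with the floor at 0 µM and 7 by DESeq2, and 8 lower with TMM and 2 by DESeq2. The floor of 1 FPM was already the main setting for host totals.

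The pooled ratio at 8 µM (1.44) was 1.37 as a median of windows, 1.48 with no floor, 1.27 with the floor at 0 µM, 2.0 over labeled counts, 1.37 with isolation over 2000 bp, 1.61 without newer exons and 1.34 without genes that follow another; at 4 µM (1.11) it was 1.15 and 1.17 with floors of 0.5 and 1 FPM, 1.03 with the floor at 0 µM, 1.42 over labeled counts, 1.19 without newer exons and 1.05 without genes that follow another. Labeled counts, the floor at 0 µM for levels, upstream windows, labeled counts and the pooled ratio, the 2000 bp isolation, the summed untreated pair and the last exclusions were chosen after seeing the data.

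Leaving out each library in turn gave 12 to 25 higher and 2 to 8 lower ratios at 8 µM, 0 to 6 and 0 to 7 at 4 µM, 0 to 5 and 0 to 0 between doses, 33 to 64 and 3 to 10 levels at 8 µM, 3 to 14 and 0 to 6 at 4 µM, 197 to 246 and 76 to 120 host totals, 2 to 4 and 334 to 400 labeled shares, 19 to 38 and 2 to 13 upstream windows, and pooled ratios of 1.41 to 1.47 and 1.09 to 1.14. A dose with 1 library left was assumed to vary like the others.

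Replicate numbers did not pair the libraries: deviations of same-numbered libraries correlated between -0.073 and 0.046 in the window ratio and between -0.016 and 0.027 in total FPM. With a replicate block, 41 and 6 windows were called at 8 µM, 11 and 8 at 4 µM and 2 and 0 between doses, 75 and 10 and 19 and 7 levels, 245 and 108 host totals, 4 and 399 labeled shares, and 47 and 14 upstream windows, with pooled ratios of 1.44 and 1.11.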

Other observations

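Some isolated windows followed genes with almost no fragments of their own. The 5 windows with the highest ratio at 0 µM were those of CBY3, AL354718.1, FAM27C, IBA57-AS1 and AC027307.3. The window after AC027307.3 was the second highest in level and held 17 and 24 fragments at 0 µM, 147 and 156 at 4 µM and 264 and 198 at 8 µM, more than the total counts of 16 and 12, 95 and 92, and 201 and 149 of the gene itself. Window and gene rose together, by log2 changes of 2.49 and 2.63 at 8 µM, and the ratio between them had a change of -0.13 with an edgeR adjusted p of 0.82. AC027307.3 begins 254 bp after the end of RPS15, a small-subunit ribosomal protein gene on the same strand, so its window and its body both lie downstream of RPS15. CBY3, whose window held 8 and 12, 59 and 44, and 44 and 32 fragments, had 1 of its untreated libraries with no total fragment at all and was among the 4 genes that were not tested.

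Among genes of 3' end processing and termination, whose windows were mostly not isolated, the genes themselves were measured well. Of 45 such genes, 31 had a higher and 3 a lower total count at 8 µM by edgeR on the FPM scale, where 51.8 and 8.71% of all genes did, with a median log2 change of 0.43 against 0.33 over all genes. With TMM scaling 21 were higher and 13 lower, with a median of 0.13 against 0.02, and all genes gave 4143 higher and 4176 lower. The labeled share was lower in 31 and higher in 0, where 49.8 and 0.432% of all genes were, with a median of -0.55 against -0.46 over all genes.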
